A study of Mus musculus with 6 samples.

Results

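Cohesin and condensin are ring-shaped protein complexes that shape chromosomes, and their mRNAs were followed here by 10 genes chosen by symbol from a table of 19233 genes. For cohesin, these were the core ATPases Smc1a and Smc3, the kleisin Rad21, which closes the ring, and the alternative regulatory subunits Stag1 and Stag2. For condensin, they were the core ATPases Smc2 and Smc4 and the 3 non-SMC subunits of condensin I, namely Ncapd2, Ncapg and the kleisin Ncaph. All 10 symbols had a row.

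Polysomal RNA, that is mRNA recovered with clusters of ribosomes attached, was sequenced in 6 libraries of RAW264.7, a mouse macrophage-like cell line, labelled M2, the alternatively activated state. Of these, 3 libraries came from cells given 500 nM BMH-21, an inhibitor of the polymerase that transcribes ribosomal RNA genes (Pol I), for 24 h beginning 24 h after polarization, and 3 from cells given the DMSO vehicle. The comparison asks how the inhibitor changed the polysome-bound mRNAs. The polarizing treatment in the labels is worded for bone-marrow-derived macrophages (IL-4, or LPS with interferon gamma), so the agent used on the line itself is not stated. DMSO replicate 2 is labelled polyadenylated RNA and the other 5 libraries total RNA. RAW264.7 is a transformed line that divides in culture, unlike most tissue macrophages, and the labels do not say whether replicates were separate cultures, and the p-values cover library-to-library spread alone, which may be technical.

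Cohesin entraps DNA. It holds sister chromatids together from replication until separase cuts Rad21 at anaphase, and throughout interphase it extrudes chromatin loops that stop at sites bound by the zinc finger protein CTCF. In macrophages it is known to be needed for full induction of inflammatory genes. Condensin compacts chromosomes for mitosis. Condensin I and condensin II share Smc2 and Smc4 and differ in their non-SMC subunits. Cohesin thus has work in cells that do not divide, whereas condensin I acts mainly in mitosis.

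Values are FPKM, which correct fragment numbers for the length of a transcript and the size of a library, so that levels can be set side by side across genes. Low values implied 18770000 to 22560000 reads per BMH-21 library and 21610000 to 24070000 per DMSO library. All 8 macrophage markers followed had reads in every library. An epithelial marker set (Epcam, Krt8, Krt18 and Cdh1) summed to 10.9 to 13.9 FPKM in the BMH-21 libraries, against 0, 0.0880 and 9.66 FPKM in DMSO replicates 1, 2 and 3. DMSO replicate 3 therefore stood with the BMH-21 libraries for these 4 genes and apart from the other DMSO libraries, and values with and without it are given below. The summed fibroblast, B cell, neutrophil and endothelial markers stayed at or below 0.492 FPKM in every library.

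All 10 subunit mRNAs fell with BMH-21, to between 22.2% and 69.4% of the DMSO mean, and in each of them every BMH-21 library lay below every DMSO library. The deepest falls were those of condensin I subunit Ncapd2, to 22.2% of DMSO, of the kleisins Ncaph and Rad21, to 26.9% and 27.4%, and of Ncapg, to 29.2%. The shallowest was that of Stag2, to 69.4%. A fall was common in this table. By limma with Benjamini-Hochberg adjustment at 0.05, 58.4% of 9748 tested genes were called lower and 19.9% higher (78.3% in either direction), and in 59.5% the BMH-21 libraries all lay below the DMSO libraries. The count of 10 in 10 is to be read against these shares, and the split between lower and higher genes depended on scaling. It was 35.3% lower and 38.2% higher with median-ratio scaling, and 35.9% lower and 36.1% higher with quantile normalization. Tested genes had at least 1 FPKM in at least 3 libraries. Stag1, Smc2, Ncapg and Ncaph met this through the DMSO libraries alone and Ncapd2 with 1 BMH-21 library, so that the count among tested genes is no support for these 5. With no filter on level, all 10 were still called lower, where 33.5% of 19233 genes were. That share is lowered by genes at or near 0 FPKM, which can hardly be called (2955 to 3786 genes were at 0 in each library). Nothing about the subunits is therefore read from it.

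**Figure D1:**
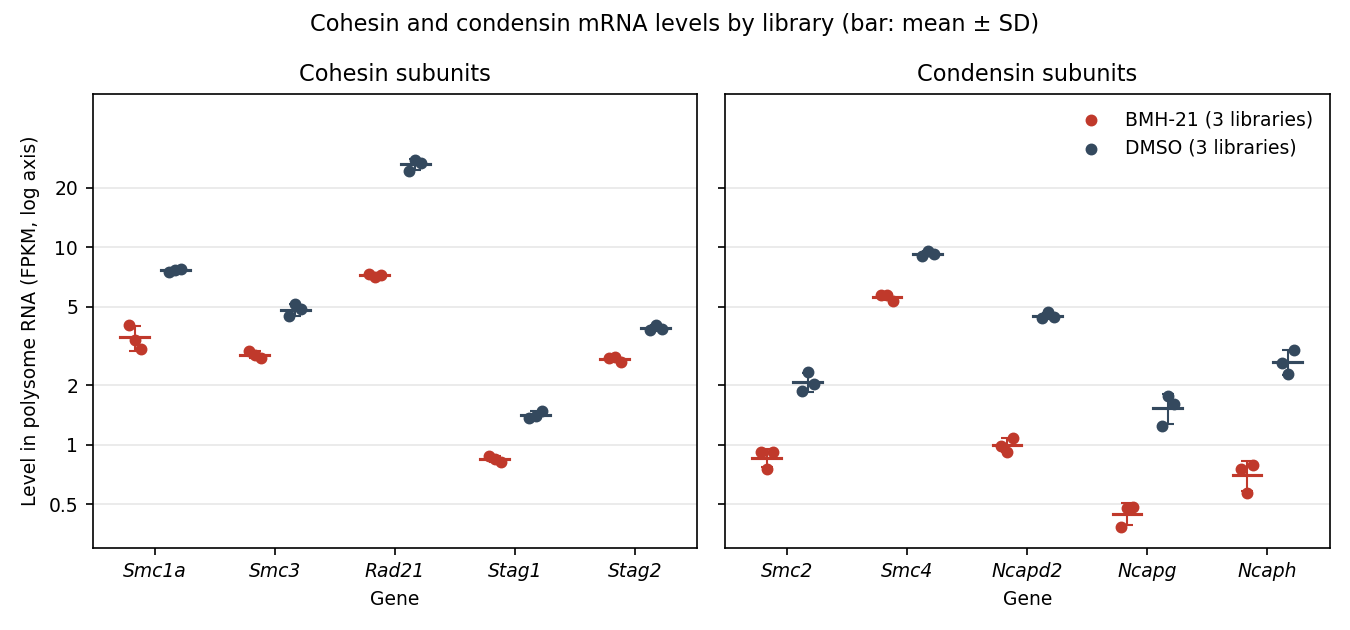
FPKM of the 5 cohesin (left) and 5 condensin (right) subunit mRNAs in each of 3 BMH-21 and 3 DMSO libraries, on a log axis, with a bar at the mean and whiskers of 1 SD. The BMH-21 and DMSO points do not overlap for any gene, and the gap is widest for Ncapd2, Ncaph and Rad21.

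Among the cohesin ATPases, Smc1a (chromosome X, 152016428 to 152062694 on GRCm38) had 4.05, 3.38 and 3.03 FPKM in the BMH-21 libraries, against 7.50, 7.67 and 7.78 FPKM in the DMSO libraries. The BMH-21 libraries spread more widely than the DMSO libraries and stayed well below them. The log2 fold change of FPKM + 1, BMH-21 minus DMSO, was −0.95 ± 0.08 (SE, limma adjusted p = 1.41e-06). Its partner Smc3 (chromosome 19, 53600398 to 53645833) had 2.98, 2.83 and 2.75 FPKM with BMH-21 and 4.49, 5.14 and 4.84 FPKM with DMSO. The log2 fold change of Smc3, whose protein pairs with that of Smc1a in the ring, was −0.59 ± 0.06 (SE, limma adjusted p = 5.83e-06).

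Rad21 (chromosome 15, 51962240 to 51991747) was the most abundant of the 10 mRNAs in both groups. It had 7.27, 7.10 and 7.21 FPKM with BMH-21, against 24.3, 27.8 and 26.6 FPKM with DMSO. The 3 BMH-21 libraries were almost equal, and none came near a DMSO library. The log2 fold change was −1.73 ± 0.05 (SE, limma adjusted p = 2.76e-09, 95% interval −1.85 to −1.61), an interval that lies below those of the other 4 cohesin genes. On this scale 0.574% of all tested genes had a lower value. By ratio of means 1.64% did, Ncapd2 and Ncaph among them.

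Stag1 (chromosome 9, 100597798 to 100959375) and Stag2 (chromosome X, 42149317 to 42277185) encode the alternative subunits that bind Rad21, and Stag2 is the commoner form in most cell types. Stag1 had 0.872, 0.850 and 0.812 FPKM with BMH-21 and 1.37, 1.40 and 1.49 FPKM with DMSO. Stag2 had 2.74, 2.76 and 2.63 FPKM with BMH-21 and 3.81, 4.05 and 3.86 FPKM with DMSO. Their log2 fold changes, −0.39 ± 0.06 for Stag1 (SE, limma adjusted p = 0.00011) and −0.40 ± 0.05 for Stag2 (SE, limma adjusted p = 3.76e-05), were the smallest of the 10 on this scale, 0.16 and 0.17 below the median of all tested genes, −0.23. With 0.1 added in place of 1, Stag1 was at −0.69 and Stag2 at −0.51, against a median of −0.28. Stag1 was tested through DMSO alone, so nothing is read from its place below these medians. In ratio of means, Stag1 at 59.5% of DMSO was level with Smc3 at 59.1%. With quantile normalization, the call on Stag2 was lost (log2 fold change −0.07, limma adjusted p = 0.195), while Stag1 was still called lower (−0.15, limma adjusted p = 0.034).

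The condensin ATPases differed from each other in level and in change. Smc2 (chromosome 4, 52439243 to 52488260) had 0.914, 0.752 and 0.912 FPKM with BMH-21, against 1.87, 2.33 and 2.03 FPKM with DMSO. Smc4 (chromosome 3, 69004738 to 69034623) had 5.71, 5.70 and 5.36 FPKM with BMH-21, against 9.0, 9.53 and 9.21 FPKM with DMSO. Smc2 thus averaged 41.3% of its DMSO level and Smc4 60.5%. On the log2(FPKM + 1) scale the gap was narrower, −0.73 ± 0.07 for Smc2 and −0.64 ± 0.05 for Smc4 (SE, limma adjusted p = 6.84e-06 and 8.35e-07), because the added 1 weighs more on the lower gene. With 0.1 added in place of 1, the values were −1.18 for Smc2 and −0.72 for Smc4.

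Of the non-SMC subunits of condensin I, Ncapd2 (chromosome 6, 125168007 to 125191701), a HEAT-repeat subunit, had 0.986, 0.919 and 1.08 FPKM with BMH-21, against 4.35, 4.67 and 4.42 FPKM with DMSO. Its log2 fold change was −1.46 ± 0.06 (SE, limma adjusted p = 1.10e-08), or −2.07 with a pseudocount of 0.1. Ncapg (chromosome 5, 45669919 to 45700546), the other HEAT-repeat subunit, had 0.382, 0.478 and 0.481 FPKM with BMH-21, against 1.24, 1.75 and 1.60 FPKM with DMSO. It was the lowest of the 10 with BMH-21, and its log2 fold change was −0.80 ± 0.08 (SE, limma adjusted p = 9.22e-06), or −1.57 with a pseudocount of 0.1. Of its exonic bases 13.4% are shared with Lcorl on the opposite strand, and counting by strand is not stated, so reads of Lcorl may be part of its value. In Ncapd2, 7.53% of exonic bases are shared with a small RNA gene, Scarna10, and a sense intronic transcript. The kleisin Ncaph (chromosome 2, 127103809 to 127133954) had 0.754, 0.566 and 0.792 FPKM with BMH-21, against 2.58, 2.27 and 3.02 FPKM with DMSO. The DMSO libraries of Ncaph were the more spread in FPKM, all of them well above the BMH-21 libraries. Relative to the mean, the SD of Ncaph was 14.4% with DMSO and 17.2% with BMH-21. Its log2 fold change was −1.09 ± 0.09 (SE, limma adjusted p = 1.34e-06), or −1.76 with a pseudocount of 0.1.

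**Figure D2:**
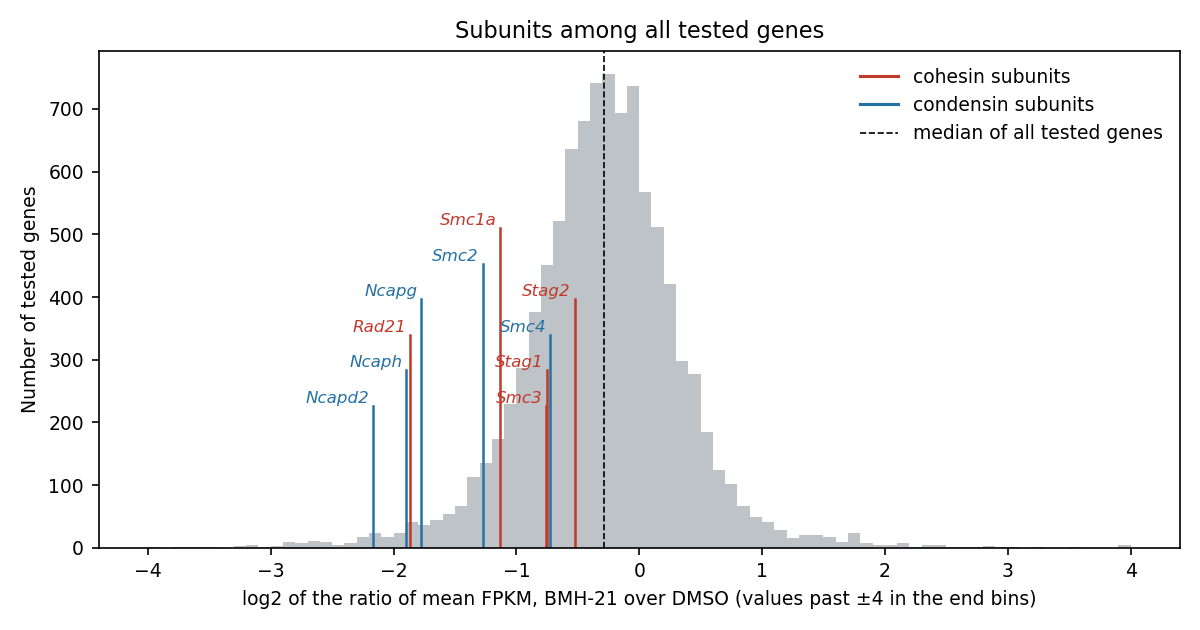
Number of tested genes (vertical axis) by the log2 of the ratio of mean FPKM, BMH-21 over DMSO, for 9748 genes, with the 10 subunits marked by vertical lines and the median of all tested genes dashed. All 10 lie left of the median, with Ncapd2, Ncaph, Rad21 and Ncapg farthest left. The level filter favours a low place for Ncapd2, Ncaph, Ncapg, Smc2 and Stag1, which passed it through DMSO.

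The order of levels also changed within the set. With BMH-21 the order by mean FPKM was Rad21 (7.19), Smc4 (5.59), Smc1a (3.49), Smc3 (2.85), Stag2 (2.71), Ncapd2 (0.995), Smc2 (0.860), Stag1 (0.845), Ncaph (0.704) and Ncapg (0.447). The ranges of the neighbours Smc3 and Stag2 overlapped, as did those of Smc2 and Stag1. With DMSO the order was Rad21 (26.2), Smc4 (9.25), Smc1a (7.65), Smc3 (4.82), Ncapd2 (4.48), Stag2 (3.90), Ncaph (2.62), Smc2 (2.08), Ncapg (1.53) and Stag1 (1.42). The overlapping neighbours there were Smc3 and Ncapd2, Ncaph and Smc2, and Ncapg and Stag1. The first 4 places were the same in both groups, and Stag1, last with DMSO, stood above Ncaph and Ncapg with BMH-21.

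Set side by side, the condensin mRNAs had the lower median, 29.2% of DMSO against 59.1% for cohesin, and 4 of the 5 condensin genes and 2 of the 5 cohesin genes were at or below a ratio of 0.5. The share among all tested genes was 10.7%, but those 4 condensin genes entered the tested set through their DMSO levels, so nothing is read from that comparison. The ranges of the complexes overlapped, from 22.2% to 60.5% for condensin and from 27.4% to 69.4% for cohesin. On the log2(FPKM + 1) scale the medians were −0.80 for condensin and −0.59 for cohesin, or 0.57 and 0.36 below the median of all tested genes. The same 4 condensin genes, and Stag1 of cohesin, entered the tested set through their DMSO levels, so nothing is read from these distances. The difference between the condensin and cohesin medians was −0.21. With a pseudocount of 0.1 that difference was −0.83. No test was made of this difference between medians, since the genes are few and not replicates.

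A ratio within a library is not altered by a scaling factor of that library. The geometric mean of the 5 condensin genes over that of the 5 cohesin genes was 0.372, 0.367 and 0.436 in the BMH-21 libraries, against 0.560, 0.581 and 0.587 in the DMSO libraries. By this measure condensin was lower relative to cohesin in every BMH-21 library. The ratio of summed FPKM went the other way, 0.488, 0.497 and 0.525 with BMH-21 and 0.459, 0.446 and 0.455 with DMSO. A sum follows its most abundant member. Rad21 made up 42.1% ± 1.64 of the cohesin sum with BMH-21 and 59.5% ± 0.863 with DMSO, and Smc4 made up 65.1% ± 2.81 of the condensin sum with BMH-21 and 46.3% ± 0.915 with DMSO (SD, n = 3 each). With Rad21 left out, the ratio of sums was 0.871 ± 0.058 with BMH-21 and 1.12 ± 0.010 with DMSO (SD, n = 3 each), which turned the direction again. The sign of the difference between the complexes therefore depended on how the subunits were combined.

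Pairs of subunits, chosen after values were seen, were set against each other within each library. Rad21 over Smc3 was 2.44, 2.51 and 2.62 with BMH-21, against 5.41, 5.40 and 5.49 with DMSO. This was the largest shift among the 6 pairs of subunits compared, and the groups were far apart. Smc4 over Smc2 was 6.25, 7.57 and 5.87 with BMH-21 and 4.81, 4.09 and 4.53 with DMSO, so the more abundant ATPase was further in excess with BMH-21. Stag2 over Stag1 was 3.21 ± 0.064 with BMH-21 and 2.75 ± 0.15 with DMSO (SD, n = 3 each), a small shift toward Stag2 without overlap. Smc1a over Smc3 was 1.22 ± 0.13 with BMH-21 and 1.59 ± 0.090 with DMSO, and Ncaph over Smc2 was 0.815 ± 0.059 and 1.28 ± 0.27 (SD, n = 3 each). Ncapd2 over Ncaph overlapped, at 1.43 ± 0.17 with BMH-21 and 1.74 ± 0.30 with DMSO. In exact permutation tests (two-sided, 3 against 3) the first 5 pairs gave p = 0.1, the smallest value this design allows, and the last p = 0.2. After Benjamini-Hochberg adjustment over the 6 pairs the values were 0.12 and 0.2. With 3 against 3 no pair could have passed 0.05, so nothing is concluded from these tests.

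**Figure D3:**
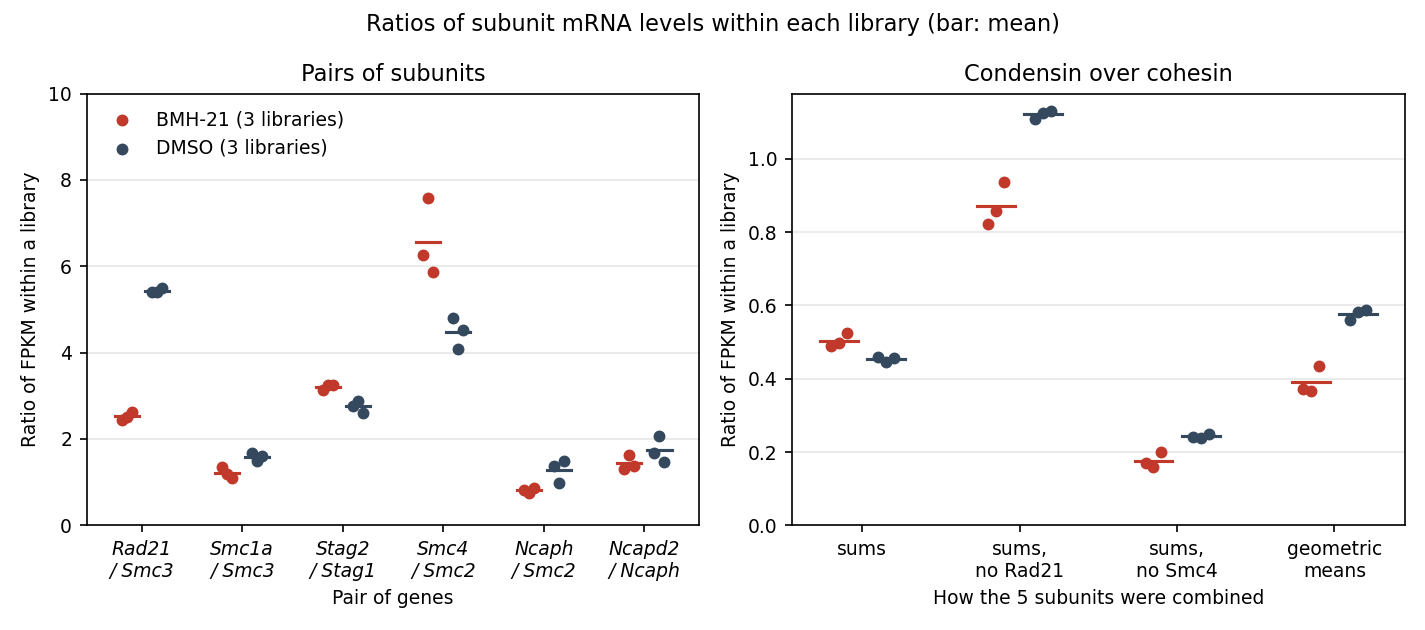
Ratios of FPKM within each of 3 BMH-21 and 3 DMSO libraries, for 6 pairs of subunits (left) and for condensin over cohesin combined in 4 ways (right), with a bar at the mean. The Rad21 over Smc3 ratio is near 2.52 with BMH-21 and 5.43 with DMSO, and the ratio of sums is the only condensin over cohesin measure that is higher with BMH-21.

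Within the group of DMSO libraries, replicate 3, which carried the epithelial markers, was 0.967 to 1.24 times the mean of replicates 1 and 2 for the 10 subunits, highest for Ncaph. The BMH-21 mean was 22.5% to 70.3% of DMSO replicate 3 alone and 22.1% to 69.0% of the mean of DMSO replicates 1 and 2. Called against DMSO replicate 3 as the lone DMSO library, which assumes that it varies like the BMH-21 libraries, all 10 subunits were lower by limma, as were 51.2% of tested genes. Without DMSO replicate 3 all 10 were again lower, as were 56.5% of tested genes.

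The upstream sequence was examined for motifs known from genes of the cell division programme. RefSeq promoter windows on GRCm38.p6 were matched by symbol for 7 of the 10 genes, 4 condensin (Smc2, Ncapd2, Ncapg and Ncaph) and 3 cohesin (Smc1a, Smc3 and Stag1). Rad21, Stag2 and Smc4 had no matched window, so nothing is said of the promoter of Rad21, the cohesin gene with the deepest fall. The Stag1 window belongs to a RefSeq start site inside the gene as GENCODE draws it. The 250 bases before the start site were searched on both strands for TTTGAA, the cell cycle genes homology region (CHR) that the DREAM and MYB-MuvB complexes are known to bind, for CCAAT, the NF-Y box, and for TTTGGCGC, a form of the E2F site. These letters do not overlap each other in any match shown. TTTGAA was found in 3 of the 4 condensin windows and 0 of the 3 cohesin windows, and is present in 16.0% of all 32851 windows. CCAAT was found in the same 3 condensin windows and in Smc1a and Stag1, against 33.8% of all windows. Both motifs together occurred in 5.55% of all windows.

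Stretches that hold TTTGAA and CCAAT matches are shown for the 3 condensin genes, with Smc1a for contrast, each read 5′ to 3′ on the strand of the gene, with TTTGAA and CCAAT matches of either strand in capitals. They cover chr4:52439061-52439121 (plus strand) for Smc2, chr6:125191702-125191778 (minus strand) for Ncapd2, chr5:45669734-45669915 (plus strand) for Ncapg and chrX:152016394-152016427 (plus strand) for Smc1a.
Smc2: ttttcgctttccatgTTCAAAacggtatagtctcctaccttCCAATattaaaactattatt
Ncapd2: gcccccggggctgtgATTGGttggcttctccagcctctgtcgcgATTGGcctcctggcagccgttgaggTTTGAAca
Ncapg: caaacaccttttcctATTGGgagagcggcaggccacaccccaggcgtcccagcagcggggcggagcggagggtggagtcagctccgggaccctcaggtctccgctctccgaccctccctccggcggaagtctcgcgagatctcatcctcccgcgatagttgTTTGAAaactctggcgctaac
Smc1a: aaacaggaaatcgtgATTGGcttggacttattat

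In Smc2 and in Ncapd2, 20 bases separate the TTTGAA match from the nearest CCAAT match, and in Ncapg 141 bases do. The order along the gene differs. TTTGAA lies upstream of that CCAAT match in Smc2, and downstream of it in Ncapd2 and Ncapg. The TTTGAA match of Ncapg begins 30 bases before its RefSeq start site, that of Ncapd2 123 bases and that of Smc2 145 bases. Ncapd2 holds another CCAAT match 48 bases before its RefSeq start site, inside the gene as GENCODE draws it and outside the stretch shown. It also holds TTTGGCGC, a form present in 0.417% of all windows, beginning 8 bases before its RefSeq start site and inside the gene as GENCODE draws it. Ncaph, which fell to 26.9% of DMSO, holds none of these letters in its window, and neither does Smc3, at 59.1%. A match of this kind is a description of the letters and does not show that a factor binds there.

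The remaining parts of the machinery were read from lists of related genes. Each count of calls below is as deposited and stands beside the 58.4% of tested genes called lower as deposited. With median-ratio scaling that share was 35.3%, but the lists were not counted again under it, so their counts are not comparable with 35.3%. Counts with no filter on level stand beside 33.5% of all genes. The share with no filter is lowered by the many genes at or near 0 FPKM. Of the 3 non-SMC subunits of condensin II, which acts from early prophase, all were called lower, against 58.4% of tested genes. Ncapd3 and Ncapg2 were under 1 FPKM in every BMH-21 library and were tested through DMSO alone. With no filter all 3 were again called lower. Ncapg2 averaged 0.621 ± 0.14 FPKM with BMH-21 and 2.01 ± 0.11 FPKM with DMSO, and Ncapd3 0.560 ± 0.067 and 1.27 ± 0.14 FPKM (SD, n = 3 each). Ncaph2 was far higher, at 34.9 ± 0.285 and 67.2 ± 1.1 FPKM (SD, n = 3 each), but 32.5% of its exonic bases are shared with Sco2 and Tymp on the opposite strand, so its level is uncertain.

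Of the 5 genes of cohesin loading and release, 4 were tested and all 4 were called lower, against 58.4% of tested genes. With no filter all 5 were. The loader Nipbl averaged 1.80 ± 0.13 FPKM with BMH-21 and 2.89 ± 0.26 FPKM with DMSO, and the releasing factor Wapl 9.60 ± 1.0 and 16.9 ± 1.8 FPKM (SD, n = 3 each). The Wapl partner Pds5a had a log2 fold change of −0.61 and the loader partner Mau2 of −0.34. The Mau2 call was lost with median-ratio scaling (−0.09), upper-quartile scaling (−0.14) and quantile normalization (−0.05). Pds5b, under the level filter, was at 53.5% of DMSO. The 5 genes lay between 53.5% and 76.1% of DMSO.

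Among 11 genes that establish, protect or cut cohesion, 9 were tested, 8 were called lower and 0 higher, against 58.4% of tested genes called lower. Of the 8, Sgo1, Dscc1, Chtf18 and Espl1 were tested through DMSO alone. With no filter, 9 of 11 were called lower. The mildest of the 8 was Chtf8, a partner of Chtf18, at 92.5% of DMSO, named after its values were seen. Sgo1, shugoshin, which shields centromeric cohesin, averaged 0.611 ± 0.066 FPKM with BMH-21 and 3.94 ± 0.22 FPKM with DMSO (SD, n = 3 each). Pttg1, securin, which restrains separase, was at 16.1% of DMSO, and Espl1, the separase that cuts Rad21, at 26.1%. Cdca5, sororin, which keeps cohesin on replicated DNA, averaged 6.70 ± 0.73 FPKM with BMH-21 and 17.6 ± 1.1 FPKM with DMSO (SD, n = 3 each), and Chtf18, of the clamp loader that aids cohesion, was at 23.1%. As deposited, the 1 gene that did not pass was Esco1, an acetyltransferase of Smc3, named here after its values were seen. It averaged 6.47 ± 0.25 FPKM with BMH-21 and 6.52 ± 0.26 FPKM with DMSO (SD, n = 3 each, log2 fold change −0.01, 95% interval −0.12 to 0.10). Esco1 and Chtf8 lay above the median of all tested genes, −0.23, and their values under other scalings are not given here. The Esco1 paralog Esco2, which acts in S phase, was under the level filter at 20.6% of DMSO and was likewise named after its values were seen.

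**Figure D4:**
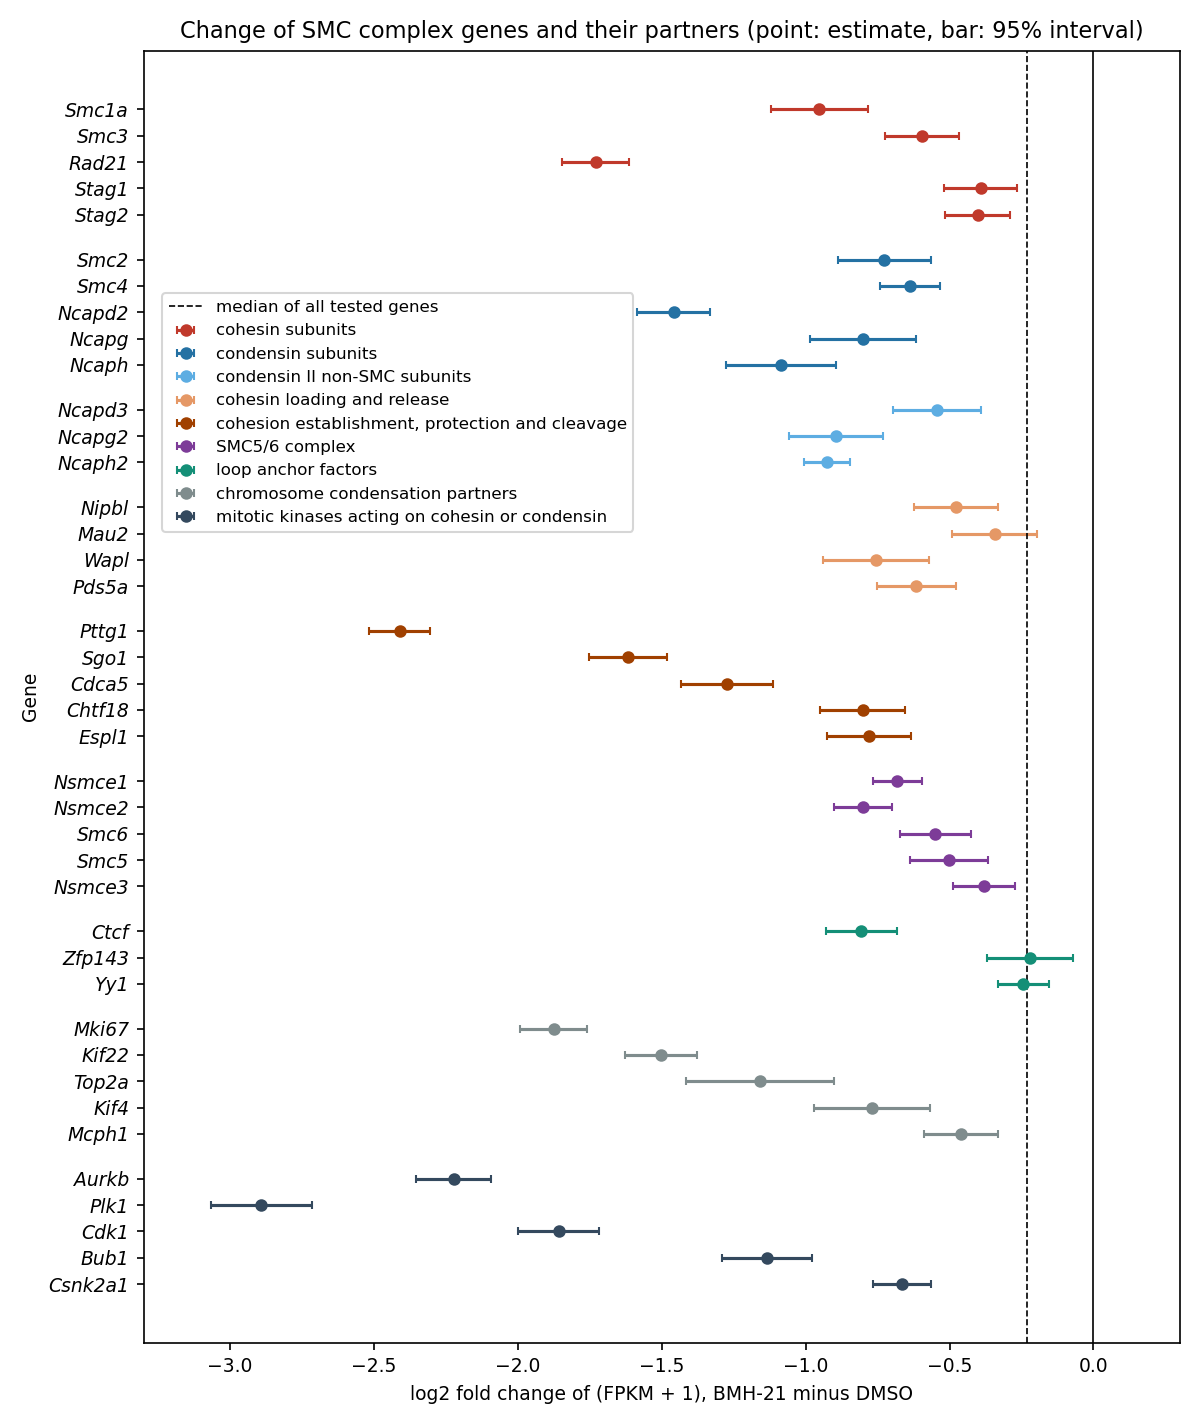
Log2 fold change of FPKM + 1, BMH-21 minus DMSO, with 95% intervals from limma, for the 10 subunits and named genes of 7 related lists, 3 libraries a group. All points drawn lie below 0 as deposited, and Rad21 lies apart from the other cohesin genes. For lists not shown in full, the genes drawn were those with the smallest p in these data, which favours clear changes. Milder genes were thus left out, among them Esco1, at 99.2% of DMSO with overlapping groups, Chtf8 at 92.5% and Slf2 at 79.8%. Deeper falls with a larger p were left out too, among them Dscc1 at 25.1% of DMSO, Haspin at 25.4% and Hdac8 at 41.5%. The dashed line marks the median of all tested genes at −0.23. After quantile normalization Zfp143, and after median-ratio scaling Yy1, lie above 0.

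The SMC5/6 complex, the third SMC complex, acts in DNA repair. Of its 8 genes, 7 were tested and all 7 were called lower, against 58.4% of tested genes, with a median log2 fold change of −0.50. With no filter, 7 of the 8 were called lower. Smc5 was at 55.9% of DMSO and Smc6 at 63.4%, near Smc3 and Smc4, and the 3 subunits Nsmce1, Nsmce2 and Nsmce3 were at 61.4%, 54.1% and 73.5%. With quantile normalization the Nsmce3 call was lost (−0.07). The rest, given after their values were seen, were milder, with Nsmce4a at 69.0% and Slf2 at 79.8%. Slf1, under the level filter, was at 69.9% with overlapping groups. Of the loop anchor factors, Ctcf averaged 3.18 ± 0.10 FPKM with BMH-21 and 6.32 ± 0.39 FPKM with DMSO (SD, n = 3 each, log2 fold change −0.81). Yy1 and Zfp143 were also called lower, at −0.24 and −0.22, near the median of all tested genes. Yy1 went to 0.03 with median-ratio scaling and Zfp143 to 0.02 with quantile normalization, and the Zfp143 call was lost without DMSO replicate 3 (limma adjusted p = 0.051).

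Partners of condensin on mitotic chromosomes were called lower in all 7 cases, against 58.4% of tested genes, and again in all 7 with no filter. Kif22, Kif4 and Top2b were tested through DMSO alone. Topoisomerase Top2a was at 30.8% of DMSO, the chromosome periphery protein Mki67 at 19.8%, the chromokinesins Kif22 and Kif4 at 14.1% and 25.0%, and Mcph1, an inhibitor of condensin II, at 59.4%. The other 2, given after their values were seen, were the topoisomerase Top2b at 54.5% and the anchoring protein Akap8 at 75.3%. The 6 kinases that act on cohesin or condensin were all called lower, against 58.4% of tested genes, and Bub1 was tested through DMSO alone. Plk1, which phosphorylates both complexes, was at 8.08% of DMSO, Aurkb at 16.7%, Cdk1 at 21.7%, Bub1 at 28.1% and the housekeeping kinase subunit Csnk2a1 at 60.9%. The ratios of Rad21, Ncapd2 and Ncaph lay between those of Cdk1 and Bub1, and Ncapg lay just above Bub1. In bulk RNA, fewer dividing cells and less of these mRNAs per dividing cell cannot be told apart, and a polysome fraction alone does not separate mRNA abundance from ribosome loading.

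Among germline cohesin genes, Smc1b was near background in every library, at 0.0917 ± 0.065 FPKM with BMH-21 and 0.176 ± 0.090 FPKM with DMSO (SD, n = 3 each), with overlapping groups. Rec8, Rad21l and Stag3 were not analysed here.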

How the data were processed

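The deposited table holds FPKM values made by the authors, 1 column per library, a unit read from the values. Per the submitters' processing notes, Trimmomatic 0.38, HISAT2, SAMtools and mm10 were used. For the counter and its annotation, the sources used here name none. Because FPKM is relative to the library total, rises of abundant genes lower the others.

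Groups came from the sample titles. Values were transformed as log2(FPKM + 1) and tested with limma 3.58.1 in R 4.3.3 (intensity trend, no block) over the 9748 genes that reached 1 FPKM in 3 or more libraries, adjusted by Benjamini-Hochberg. The test was tested on simulated data. Ratios of means used untransformed FPKM. Of low single-transcript values, 75.4% to 77.5% fell within 0.01 of whole reads, too few to recover counts, so no count test was run. Positions came from GENCODE M21 on GRCm38, promoters from RefSeq.

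The members and lists were chosen with earlier results of these data known. Named genes were all members, the condensin II, germline, loading and loop anchor lists in full, and up to 5 genes of other lists by p. Alternatives covered pseudocount, filter, scaling, trend, replicate block and left-out libraries. Alternatives on the filter by mean and on DMSO replicate 3 alone were added after seeing the data.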

Additional observations from a re-analysis of the deposited data

How the results depend on the processing

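Over 16 alternatives, the 10 subunits kept a negative log2 fold change wherever they were tested, and 158 of 159 values stayed past the threshold, the exception being Stag2 with quantile normalization. A filter on the mean of all 6 libraries, chosen after seeing the data, removed Ncapg. The scaling decided the split of all genes. Median-ratio scaling gave 3442 lower and 3724 higher genes, quantile normalization 3498 and 3517, and upper-quartile scaling 3883 and 3349. Column totals made equal went the other way, with 6623 lower and 1389 higher, against 5690 lower and 1938 higher as deposited. The all-gene median was 0.0095 with median ratios, 0.0032 with quantile normalization, −0.04 with upper quartiles and −0.33 with equal totals, against −0.23 as deposited. The cohesin median was −0.36 under median ratios, −0.41 under upper quartiles, −0.27 under quantile normalization, −0.69 with column totals made equal and −0.74 with a pseudocount of 0.1. The condensin median was −0.67, −0.69 and −0.52 with the first 3 of these, −1.57 with a pseudocount of 0.1 and −0.91 with the filter on the mean. Condensin minus cohesin was −0.30 under median ratios, −0.28 under upper quartiles, −0.83 with a pseudocount of 0.1 and −0.31 with the filter on the mean. Leaving out 1 library at a time gave −0.89 to −0.74 for condensin, −0.64 to −0.56 for cohesin and −0.25 to −0.15 for the difference. Yy1 turned to 0.0341 with median-ratio scaling and Zfp143 to 0.0164 with quantile normalization. The cause of these shifts was not tested. With the replicate block, 7502 genes were called against 7628, and all 10 subunits stayed lower. Libraries of the same number did not vary together across genes (correlations of deviations −0.11, −0.09 and −0.06). These values do not settle whether the libraries were paired. The true read depth behind these FPKM values is known only by estimate.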
